A study of Rattus norvegicus with 9 samples.

Results

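Interferon-stimulated genes are the transcripts that a cell switches on after interferon has bound its receptor, and 9 of them were followed here through the spinal cord of rats with and without nerve injury. The members are the rows of the expression table named Stat2, Irf7, Irf9, Ifit2, Ifit3, Mx1, Mx2, Isg15 and Oasl2. Each name matched a single row, so the set holds 9 of the 34890 loci listed. The tissue was the L3-L6 segment of the spinal cord, taken from the ipsilateral side of male, wild-type Sprague Dawley rats. The sham-operated rats (JA) and the rats with spared nerve injury (SNI), a model of neuropathic pain in which branches of the sciatic nerve are ligated and transected, were given normal saline by mouth, and there were 3 samples of each. The 3 samples of the PLM group came from rats with the same injury that were given paeoniflorin at 20.65 mg/mL together with liquiritin. The liquiritin level is labelled 3.98, 3.99 and 3.100 mg/mL for replicates 1, 2 and 3, a series that runs on in the last digits. All rats were operated on, and the design holds no uninjured rats given the drugs, so the PLM samples can be set against injury alone and against sham surgery only.

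Type I interferons bind a receptor whose kinases phosphorylate STAT2. It joins IRF9 in a complex, named ISGF3, that binds a short DNA element, the interferon-stimulated response element, in the promoters of target genes. The products of those genes bind or degrade viral RNA, hold back translation or tag proteins, and a low tonic level of many of them is kept up in brain and spinal cord by microglia, astrocytes, vessels and neurons. STAT2 and IRF9 are both parts of the complex and its targets, and IRF7 is a target that feeds forward into further interferon production.

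The promoter was taken from 250 bases before to 50 bases after the RefSeq start of each gene on the build GRCr8, and 6 of the 9 members had an entry: Stat2, Irf7, Irf9, Ifit3, Mx1 and Oasl2. The members with no entry were Ifit2, Mx2 and Isg15. The sequences below are shown because they carry the element through which ISGF3 acts, or, in Stat2, because that gene gave the clearest difference between groups. Capitals mark each match to GAAANNGAAA, read on both strands, where it appears as TTTCNNTTTC.
Irf7, chr1:205799974-205800273, minus strand: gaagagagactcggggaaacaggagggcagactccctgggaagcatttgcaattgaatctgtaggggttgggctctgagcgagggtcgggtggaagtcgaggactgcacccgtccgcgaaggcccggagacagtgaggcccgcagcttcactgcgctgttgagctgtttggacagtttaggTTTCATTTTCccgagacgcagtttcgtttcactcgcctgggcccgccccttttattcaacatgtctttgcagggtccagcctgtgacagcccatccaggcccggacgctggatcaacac
Ifit3, chr1:241527076-241527375, plus strand: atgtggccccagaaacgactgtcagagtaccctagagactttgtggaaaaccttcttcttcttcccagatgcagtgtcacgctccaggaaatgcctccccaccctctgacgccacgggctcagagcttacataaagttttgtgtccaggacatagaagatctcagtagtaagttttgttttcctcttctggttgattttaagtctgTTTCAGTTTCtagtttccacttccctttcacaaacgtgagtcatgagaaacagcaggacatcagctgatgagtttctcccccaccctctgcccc
Oasl2, chr12:47383136-47383435, minus strand: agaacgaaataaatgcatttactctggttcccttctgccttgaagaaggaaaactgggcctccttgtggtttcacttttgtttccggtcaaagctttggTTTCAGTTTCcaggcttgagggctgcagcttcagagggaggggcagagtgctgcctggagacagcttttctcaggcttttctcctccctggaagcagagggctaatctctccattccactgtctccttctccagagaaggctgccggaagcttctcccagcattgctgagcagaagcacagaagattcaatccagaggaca
Stat2, chr7:1286840-1287139, plus strand: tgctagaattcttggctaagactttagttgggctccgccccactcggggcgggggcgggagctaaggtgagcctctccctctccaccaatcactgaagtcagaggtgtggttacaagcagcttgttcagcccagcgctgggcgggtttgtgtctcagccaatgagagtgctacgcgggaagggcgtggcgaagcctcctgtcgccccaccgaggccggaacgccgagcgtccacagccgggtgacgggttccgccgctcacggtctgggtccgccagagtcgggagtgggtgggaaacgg
The match begins 69 bases before the start in Irf7, 44 bases before it in Ifit3 and 151 bases before it in Oasl2. It was present in 3 of the 6 member promoters and in 3.92% of all 33469 promoters of the same length. Over the wider interferon pathway described further on, 45 of 109 promoters held it. A match is a stretch of letters and no binding was measured.

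The 9 genes were expressed at low to moderate levels. Values are TPM, a transcript abundance scaled to a fixed total per sample, which divides by transcript length, so that genes can be compared within a sample. Averaged over the 9 samples, Mx2 was highest at 14.1 TPM, followed by Stat2 at 10.4, Isg15 at 8.80, Ifit3 at 8.23, Irf7 at 7.94, Irf9 at 7.32, Ifit2 at 5.23, Oasl2 at 4.36 and Mx1 at 1.51 TPM. In that order Mx2 and Stat2, Irf9 and Ifit2, and Oasl2 and Mx1 differ by more than the larger of their SDs over the samples, and the other neighbours do not. From Isg15 to Irf9 the SDs ran from 1.84 to 4.62 TPM. Mx1 lay below every other member in all 9 samples. The interferons themselves were almost unseen: of 12 ligand genes matched, none reached a mean of 1 TPM, 9 were listed at 0 in every sample, and Ifnb1 and Ifng were each above 0 in 1 sample only, at 0.33 TPM in PLM replicate 3 and at 0.18 TPM in SNI replicate 3.

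**Figure D1:**
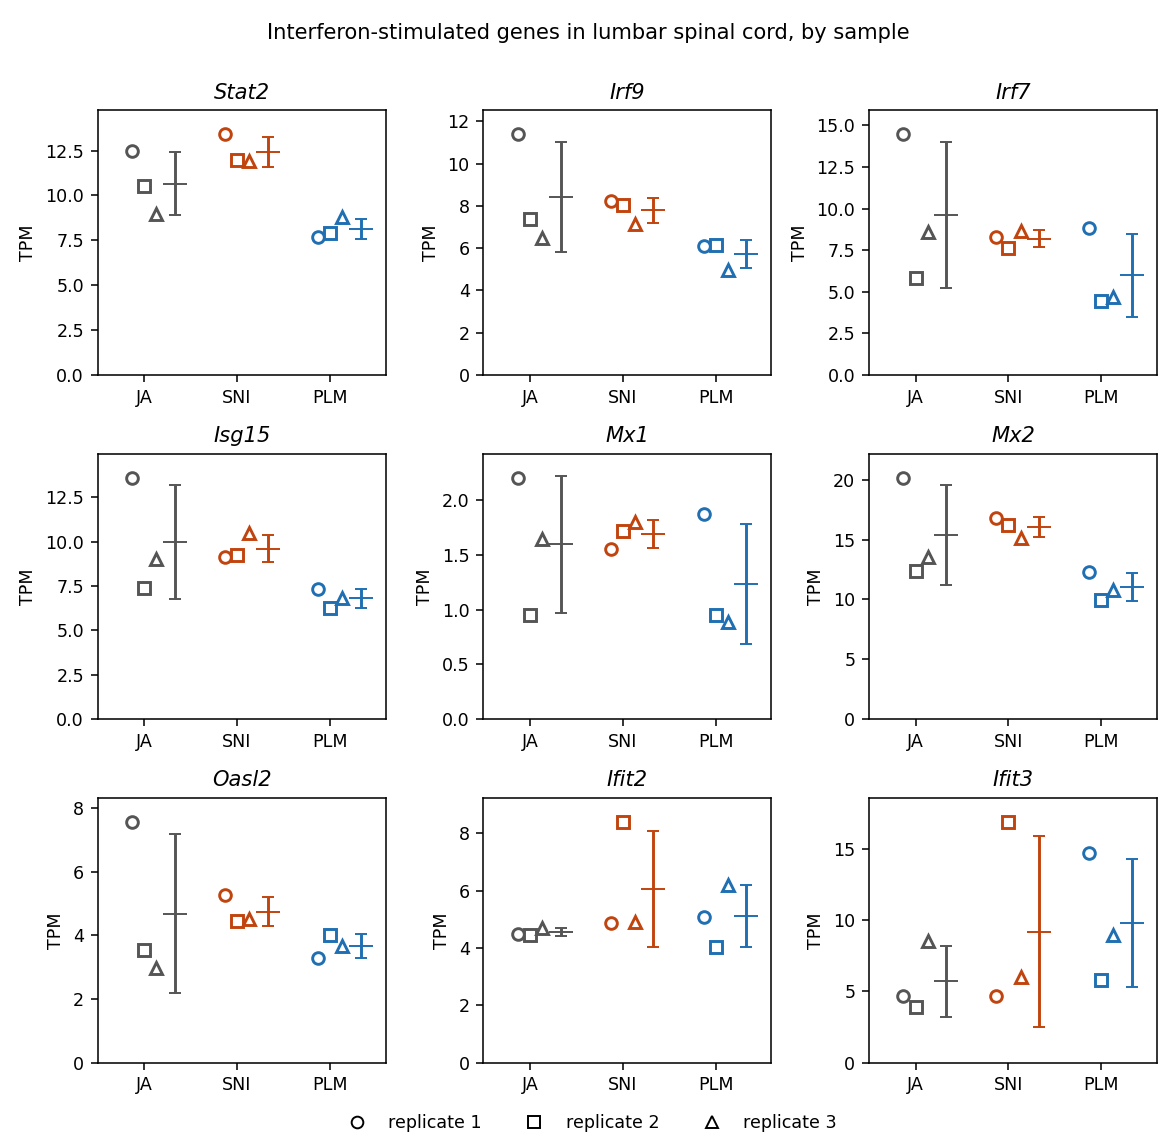
TPM of each of the 9 interferon-stimulated genes in the 3 groups. Symbols are single samples by replicate number, and the bar beside them is the group mean with its SD (n = 3). JA replicate 1 is the highest sample in 6 panels, and in Stat2, Irf9, Isg15, Mx2 and Oasl2 the 3 PLM samples lie below the 3 SNI samples.

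The table as a whole needs 1 caution before any comparison. The median locus stood at a log2(TPM + 1) of 3.47 to 3.53 in the SNI samples, 3.18 to 3.30 in the PLM samples and 3.30 to 3.46 in the JA samples. Mitochondrial protein genes took 23.7% to 26.1% of all TPM in SNI, 31.3% to 32.8% in PLM and 25.3% to 32.8% in JA. Since TPM sums to a fixed total, a larger mitochondrial share lowers the others. Each comparison is therefore given as deposited and after the median of every sample had been set equal, called median-centred below. Markers of the labelled tissue were high in all samples, at 2217 to 5308 TPM for 10 neuron genes and 46387 to 56592 TPM for 9 oligodendrocyte genes in sum. The summed level of 7 Schwann cell markers ranged from 199 TPM in JA replicate 2 to 7964 TPM in JA replicate 3. In bulk tissue, fewer cells of a type and less RNA per cell cannot be told apart.

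The first comparison asked whether nerve injury moved these genes, SNI against JA. No member was called at an adjusted p under 0.05 by limma, and none reached an unadjusted p under 0.05 in either direction. Over all 15557 loci tested, 0% were called lower and 0% higher after adjustment, and 0.99% lower and 6.11% higher passed the unadjusted threshold. The fold changes of the members ran from -0.13 in Irf7 to 0.47 in Ifit3 on the log2(TPM + 1) scale, and their adjusted p-values in limma ran from 0.615 to 0.98. Their median was 0.09, beside 0.12 over all loci. These fold changes understate the change of low genes such as Mx1.

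In 7 of the 9 members the SD over the sham samples was larger than over the SNI samples, and in Ifit2 and Ifit3 it was smaller. The JA samples 1, 2 and 3 gave, for Irf7, 14.47, 5.86 and 8.57 TPM, while SNI samples gave 8.29, 7.66 and 8.65 TPM. Oasl2, a member of the oligoadenylate synthetase-like family that lies next to Oasl in the genome, read 7.55, 3.53 and 2.96 TPM in JA and 5.26, 4.46 and 4.52 TPM in SNI. JA replicate 1 stood above all SNI samples in both genes, and the groups overlapped. It was the highest of all 9 samples for Irf7, Irf9, Mx1, Mx2, Isg15 and Oasl2, that is for 6 of the 9 members, and after median-centring for 5. Relative to the mean of the other 2 JA samples it was 2.33 times higher in Oasl2, 2.01 times in Irf7, 1.70 times in Mx1, 1.66 times in Isg15, 1.64 times in Irf9 and 1.55 times in Mx2. In Stat2 the ratio was 1.28, in Ifit2 0.976 and in Ifit3 0.757, so the pair of Ifit genes was not higher in that sample. The summed TPM of the members was 90.96 in JA replicate 1, 56.4 in JA replicate 2 and 64.39 in JA replicate 3.

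Several injury contrasts changed when that sample was left out. JA replicate 1 was the highest sample of Irf7, Irf9, Isg15, Oasl2 and Mx2, so leaving it out had to raise their values. Without JA replicate 1 the SNI against JA fold change went from -0.13 to 0.18 in Irf7, from -0.07 to 0.15 in Irf9 and from -0.01 to 0.21 in Isg15, which also turned above 0 without SNI replicate 1 (0.019) or SNI replicate 2 (0.010). It moved from 0.10 to 0.44 in Oasl2 and from 0.09 to 0.29 in Mx2, with adjusted p-values of 0.249 and 0.254 in limma, the lowest of ranges that reached 1 over the alternatives. After centring the values without JA replicate 1 were smaller, at 0.016 in Irf7, -0.016 in Irf9, 0.042 in Isg15, 0.27 in Oasl2 and 0.12 in Mx2, so that Irf9 kept its sign. None was called in either form. Of 91 further interferon pathway genes with a mean of 1 TPM or more, JA replicate 1 was the highest of the 9 samples for 23 and the lowest for 3, beside 12.1% of all loci for which it was the highest. JA replicate 2 was the highest for 21 of them and for 9.42% of all loci. Oas1f, a further oligoadenylate synthetase gene, was at 11.42 TPM in JA replicate 1 and between 40.09 and 56.68 TPM in the other 8 samples. It was singled out after its values had been seen.

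Ifit2 was the 1 member with no overlap between SNI and JA. IFIT2 and IFIT3 are tetratricopeptide-repeat proteins that bind foreign RNA and each other, and their genes are neighbours on chromosome 1 of GRCr8. Ifit2 was at 4.47, 4.46 and 4.70 TPM in JA and at 4.86, 8.38 and 4.89 TPM in SNI. The lowest SNI sample stood just above the highest JA sample, and SNI replicate 2 stood far above both. The fold change was 0.31 ± 0.20 (SE), with an adjusted p of 0.622 in limma, and it was 0.08 without SNI replicate 2. Among all loci, 12.1% had no overlap in this direction. Ifit3 read 4.71, 3.90 and 8.54 TPM in JA and 4.66, 16.85 and 5.99 TPM in SNI, so that SNI replicate 2 was the highest again and the groups overlapped. Its fold change of 0.47 became -0.03 without that sample. After median-centring 0% of loci were called lower and 0% higher, and no member was called. No member was free of overlap, beside 6.87% of loci lower and 4% higher, and none reached an unadjusted p under 0.05, beside 3.13% lower and 1.7% higher. Of the 9 fold changes 6 lay below 0.

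**Figure D2:**
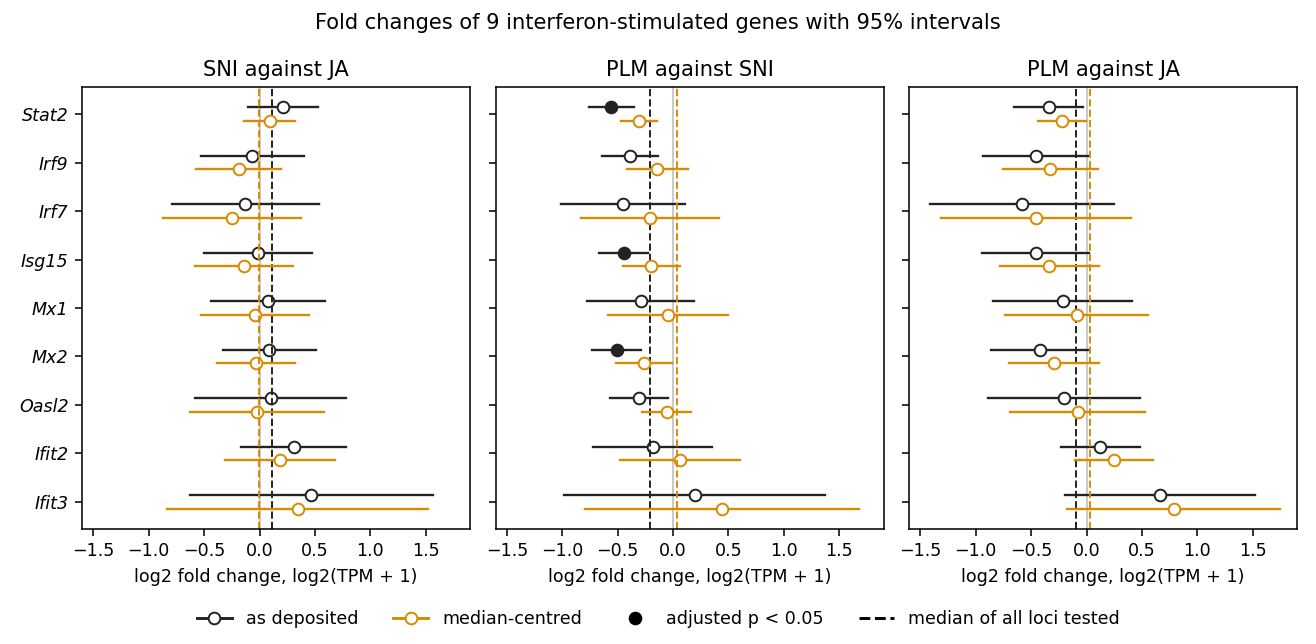
Log2 fold change of each gene with its 95% interval from limma in the 3 comparisons, on log2(TPM + 1). Black marks the values as deposited and orange the median-centred values, filled points passed an adjusted p of 0.05, and dashed lines are the medians of all loci tested. Stat2, Isg15 and Mx2 are filled in PLM against SNI as deposited and no point is filled after centring.

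The next comparison asked what the drug combination changed in injured rats, PLM against SNI. As deposited, 3 of the 9 members were called lower by limma, namely Stat2, Mx2 and Isg15, and none was called higher. The background was large: 13.6% of the 15474 loci tested were called lower and 0.246% higher, and 85.0% of all loci had a fold change below 0. The members' median fold change was -0.39, beside -0.21 over all loci. Centring took the median locus to 0.04 and the members' median to -0.14.

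Stat2, the transcription factor subunit particular to the type I and type III interferon pathway, gave the smallest p of the members. SNI samples were at 13.41, 11.95 and 11.91 TPM and PLM samples at 7.70, 7.91 and 8.79 TPM. All PLM samples were below all SNI samples and below the lowest JA sample, at 8.98 TPM. The SNI mean of 12.4 ± 0.855 TPM stood against 8.13 ± 0.578 TPM with the drugs (SD, n = 3). The change on the log2(TPM + 1) scale was -0.56 ± 0.085 (SE), with an adjusted p of 0.0179 in limma and a range of 0.0144 to 0.319 over the alternatives tried. After centring the difference was -0.31 ± 0.067 (SE), still without overlap, with an unadjusted p of 0.00334 and an adjusted p of 0.108 in limma. Stat2 was thus the 1 member without overlap after centring, beside 9.76% of all loci, and the call did not survive the centring.

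Mx2 and Mx1 encode dynamin-like GTPases that restrict viruses and lie close together on chromosome 11, with Fam3b between them. Mx2 was at 16.77, 16.23 and 15.16 TPM in SNI and at 12.31, 9.98 and 10.77 TPM in PLM, without overlap. The fold change was -0.51 ± 0.093 (SE), with an adjusted p of 0.0260 in limma (0.0205 to 0.559 over the alternatives), and -0.26 after centring, with an unadjusted p of 0.0463 and an adjusted p of 0.287. Mx1 was near the floor of the filter, at 1.55, 1.72 and 1.80 TPM after injury alone and 1.87, 0.95 and 0.89 TPM with the drugs. PLM replicate 1 was above all SNI samples and the other 2 were below, and the fold change of -0.29 had an adjusted p of 0.319 in limma and was -0.04 after centring.

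Isg15, a ubiquitin-like protein that is joined to other proteins after interferon, was at 9.11, 9.23 and 10.49 TPM in SNI and at 7.33, 6.27 and 6.80 TPM in PLM. The groups did not overlap. The fold change was -0.44 ± 0.092 (SE), with an adjusted p of 0.0336 in limma (0.0299 to 0.696 over the alternatives), and -0.20 after centring, with an adjusted p of 0.413. Of the enzymes that attach and remove it, 4 were tested: Ube2l6, the conjugating enzyme, was called lower, with means of 6.65 ± 0.684 TPM after injury alone and 4.58 ± 0.150 TPM with the drugs (SD, n = 3) and an adjusted p of 0.0349 in limma. Usp18, the protease that removes it and also holds back the receptor, averaged 6.04 ± 1.39 TPM without and 3.74 ± 0.677 TPM with the drugs, with an adjusted p of 0.0722 in limma.

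Irf9 and Oasl2 also had no overlap but were not called. Irf9, the DNA-binding partner of the complex, was at 8.22, 8.06 and 7.13 TPM in SNI and at 6.11, 6.13 and 4.98 TPM in PLM, a fold change of -0.39 with an adjusted p of 0.0561 in limma, and -0.14 after centring with 0.588. Oasl2 was at 3.28, 4.02 and 3.67 TPM in PLM, all below its SNI samples, with a fold change of -0.30 and an adjusted p of 0.0999, and -0.06 after centring with 0.799. With Stat2, Mx2 and Isg15 this made 5 of 9 members without overlap, beside 41.9% of all loci. Irf7 was split within PLM, at 8.85, 4.44 and 4.66 TPM, so that replicate 1 exceeded every SNI sample. Its fold change was -0.45 with an adjusted p of 0.199 in limma, and without PLM replicate 1 it was -0.73 with an adjusted p of 0.0359, the lowest of a range that reached 0.964 over the alternatives. After centring all samples it was -0.20.

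Ifit2 was at 5.09, 4.03 and 6.19 TPM in PLM and Ifit3 at 14.67, 5.82 and 8.92 TPM, both overlapping the SNI range. Their fold changes were -0.19 and 0.20, with adjusted p-values of 0.561 and 0.787 in limma, and 0.06 and 0.44 after centring. The 95% interval for Ifit3 ran from -0.98 to 1.37, so a change of either sign was not detectable at this spread.

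After centring, no member was called, while 0.685% of all loci were called lower and 0.129% higher. At an unadjusted p under 0.05, 2 members were lower, Stat2 and Mx2, beside 6.89% of loci. As deposited the 3 calls also changed with single samples left out, and so did the calls over all loci. Of all loci, 2110 were called lower with the 6 samples and 264 to 1456 with 1 left out. Leaving out each of the 6 samples in turn, limma called none without SNI replicate 1 or without PLM replicate 2, Stat2 alone without SNI replicate 2, SNI replicate 3 or PLM replicate 3, and Mx2 with Irf7 without PLM replicate 1. The fold changes of Stat2, Mx2 and Isg15 stayed below 0 in each of these fits.

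Astrocyte markers moved in the same samples as Stat2. The summed level of 10 astrocyte genes was 3088 to 3422 TPM in SNI and 1512 to 1824 TPM in PLM. As deposited all 10 were called lower in PLM, beside 13.6% of all loci. Marker calls were counted in that form only. None of the 10 was at 0 in all samples. Over the 9 samples Stat2 followed the mean of these markers with r = 0.94 and rho = 0.83 on the median-centred scale, and single markers gave r between 0.85 and 0.95. The r was 0.76 after group means had been removed and 0.94 without the 2 samples farthest from the median. For the other members the r with the same mean over all samples, and without the 2 farthest, was 0.72 and 0.39 in Mx2, 0.65 and 0.44 in Irf9, 0.51 and 0.15 in Isg15, 0.46 and 0.62 in Oasl2, 0.43 and -0.16 in Irf7, 0.19 and -0.42 in Mx1, -0.21 and -0.14 in Ifit2 and -0.37 and -0.48 in Ifit3. In Irf7, Isg15 and Mx1 the relation thus rested on those samples or was weak from the start. After removal of group means neuron markers gave values of the same size or larger in some members, at r = 0.75 in Isg15, 0.76 in Oasl2, 0.67 in Mx2 and 0.64 in Irf7, beside 0.34, 0.72, 0.57 and 0.41 with the astrocyte markers. Over all samples the neuron values were 0.05, 0.44, 0.07 and 0.08 in that order, and without the 2 farthest -0.25, -0.08, -0.27 and -0.15. The 14 microglia and macrophage markers summed to 540 to 580 TPM in SNI and 527 to 604 TPM in PLM, with 1 called. Blood cell markers summed to 4341 to 7431 TPM in SNI and 8233 to 11763 TPM in PLM, and oligodendrocyte markers to 46387 to 48615 and 50128 to 51203 TPM. Neuron markers summed to 4268 to 5308 TPM in SNI and 3707 to 4255 TPM in PLM. None of these markers was called. Stat2 gave r = -0.80 with the blood cell and -0.71 with the oligodendrocyte markers. B cell and plasmacytoid dendritic cell markers were near 0, at 0.34 to 1.88 TPM in sum, with 0 of 5 at a mean of 1 TPM or more. The part of cell composition and of the mitochondrial share in the differences between PLM and SNI was not tested.

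The last comparison set PLM against JA, injury with drug against sham. No member was called, as deposited or median-centred. Of 15349 loci, 0.013% were called lower and 0.00652% higher as deposited, and 0.013% lower and 0% higher after centring. Stat2 was the 1 member past an unadjusted threshold of 0.05. Its fold change was -0.34 as deposited, with an unadjusted p of 0.0362 and an adjusted p of 0.412 in limma, and -0.22 after centring, with 0.0495 and 0.50. The share of loci lower at that threshold was 10.5% and 4.72%. Stat2, Irf9, Mx2 and Isg15 had no overlap, all lower, beside 15.7% of loci, and after centring Stat2 alone, beside 6.9%. Fold changes ran from -0.58 in Irf7 to 0.66 in Ifit3. This comparison shares its PLM samples with PLM against SNI and its JA samples with SNI against JA. As deposited, after centring and without JA replicate 1, in that order, PLM against JA gave -0.58, -0.46 and -0.27 for Irf7, -0.42, -0.29 and -0.22 for Mx2, -0.46, -0.33 and -0.24 for Isg15 and -0.45, -0.33 and -0.24 for Irf9. For Mx1 they were -0.21, -0.09 and -0.05 and for Oasl2 -0.20, -0.08 and 0.13. JA replicate 1 is the highest sample of these 6 genes, so leaving it out had to raise each value.

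**Figure D3:**
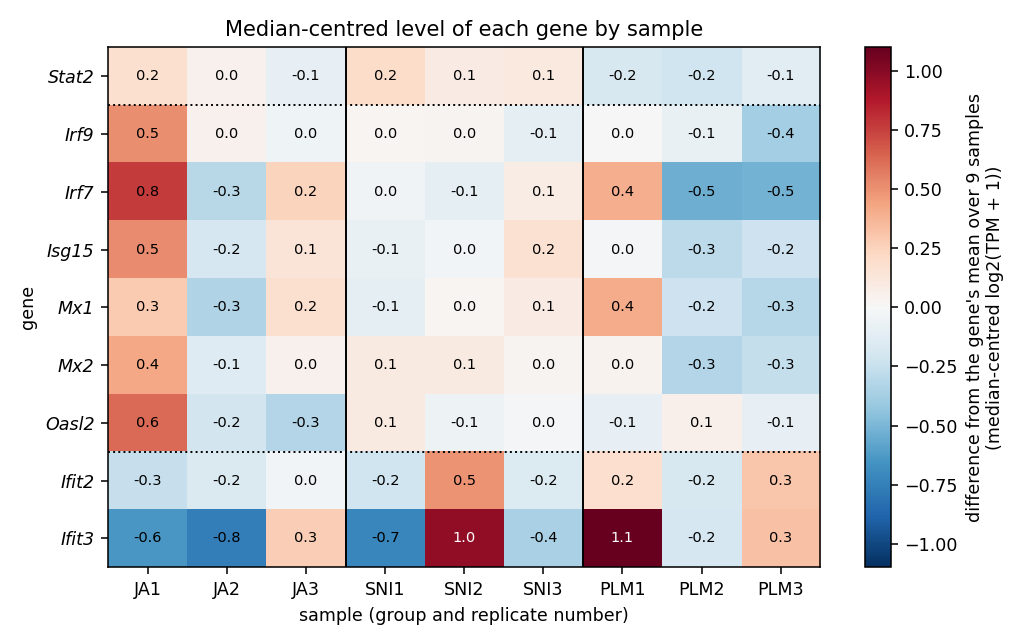
Median-centred log2(TPM + 1) of each gene in each sample, minus the mean of that gene over the 9 samples. Red is above and blue below the mean, and dotted lines set apart Stat2, the 6 genes highest together in JA replicate 1 as deposited, and the Ifit genes, with Ifit3 highest in PLM replicate 1 and Ifit2 in SNI replicate 2.

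The members did not share 1 order of the samples. The division below was made after the values had been seen, with the 6 genes chosen for their height in JA replicate 1, so their correlations follow in part from that choice and do not support it. They describe 9 samples that share libraries and scaling. Irf7, Irf9, Isg15, Mx1, Mx2 and Oasl2 gave 15 pairs, whose correlation over the samples on the median-centred scale had a median r of 0.74 and a median rho of 0.38, ranging in r from 0.27 to 0.91. The closest pair was Irf7 with Isg15, at r = 0.91 and rho = 0.92, and r = 0.77 without the 2 samples farthest from the median of Irf7. Irf7 with Mx1 gave r = 0.90 and rho = 0.90, and 0.95 without the 2 farthest samples. Irf7 with Mx2 gave r = 0.91 and rho = 0.73, and 0.75 without them. These are among the pairs that held. Over all 15 pairs the r without the 2 farthest samples had a median of 0.34 and ran from -0.29 to 0.95, and 5 pairs were below 0: Irf9 with Isg15, with Mx1 and with Oasl2, and Oasl2 with Irf7 and with Isg15.

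Ifit2 and Ifit3 were close to each other, with r = 0.87 and rho = 0.80, and 0.95 without the 2 farthest samples. Against the 6 genes above, the 12 pairs had a median r of -0.19, and of 0.01 after removal of group means, when the highest reached 0.53. Ifit3 was above 8 TPM in JA replicate 3, SNI replicate 2, PLM replicate 1 and PLM replicate 3, 1 or more samples of every group. Among all named loci, the 8 most like Ifit3 over the samples were Ppp1r15a, a subunit of the phosphatase that restarts translation after stress, with r = 0.97 and rho = 0.92, then Rnf20 (r = 0.95), Tmem252, Btg2, Cdkl3 and Zfp36 (r = 0.92 each), and Synj2bp and Ptgs2 (r = 0.91 each). The 7 Schwann cell markers, which differ most between samples, gave r = 0.45 with Ifit3, and 5 blood cell markers gave r = 0.57. After removal of group means these were 0.49 and 0.61, and 7 meninges and fibroblast markers gave 0.68. Without the 2 farthest samples the r was 0.29, 0.33 and -0.39 in that order.

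**Figure D4:**
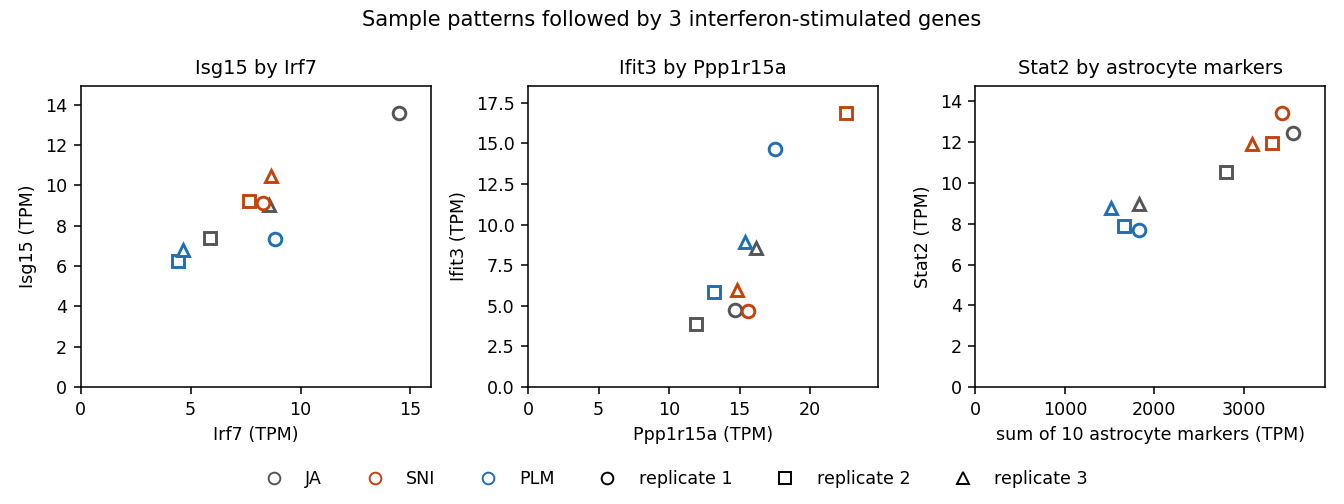
TPM of Isg15 against Irf7, of Ifit3 against Ppp1r15a and of Stat2 against the sum of 10 astrocyte markers. Each point is 1 sample, coloured by group with its symbol giving the replicate number, and the 3 PLM samples sit together at the low end of the astrocyte axis with JA replicate 3.

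Stat2 was no farther from the 6 genes than they were from each other by rank, with a median r of 0.50 and a median rho of 0.49 with them. With the Ifit genes its median r was -0.41. Its closest loci were Pcdhgb5 and Sorcs2, each at r = 0.98, followed by Sirpa at r = 0.97 and Mmd2 at r = 0.97. Sorcs2 was at 6.71, 6.0 and 5.45 TPM in SNI and at 2.40, 2.39 and 2.66 TPM in PLM. JA replicate 3 was again low, at 2.87 TPM in Sorcs2 and at 8.98 TPM in Stat2, the lowest JA value of each. The closest loci to the mean of all 9 members were LOC102550456 at r = 0.93 and rho = 0.92, Pla2g4e at r = 0.89, Coa4 at r = 0.88, Slc17a5, Kcnip2 and Nif3l1 at r = 0.87 each, Rasa2 at r = 0.86, and Tbccd1, AABR07017849.1 and Mrpl57 at r = 0.85 each. None of the 10 closest of 13944 loci was in the pathway lists, and 1 of 91 pathway genes was among the 100 closest. For Irf7 alone, the closest of 13952 loci were Metap1d at r = 0.95 and Mtch1 at r = 0.91, neither in the pathway lists. Isg15, Gorasp1, Mx2 and Mx1 took places 3, 4, 5 and 6, and the next pathway gene was Ifi27 at place 13. Isg15, Mx2 and Mx1 had been grouped with Irf7 by their height in JA replicate 1.

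The wider interferon pathway was read from lists of 124 further genes, of which 89 were tested in PLM against SNI. As deposited 13 were called lower and none higher, 14.6% beside the background of 13.6%. Their median fold change was -0.22, beside -0.21 over all loci, and after centring none was called. In SNI against JA none of 92 was called and in PLM against JA none of 90, at the backgrounds given above.

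Among receptors and kinases, 2 of 9 were called lower. Jak1, the kinase shared by interferon receptors, was 1 of them, at -0.32 with an adjusted p of 0.0385. Ifngr1, a chain of the type II receptor, averaged 47.3 ± 4.15 TPM without and 37.2 ± 4.26 TPM with the drugs (SD, n = 3) and was not called.

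Among nucleic acid sensors and their adaptors, 1 of 11 was called lower, Mavs, the mitochondrial adaptor of the RNA sensors, at -0.49. Tbk1, the kinase that acts below them, averaged 11.5 ± 0.767 TPM without and 9.96 ± 0.597 TPM with the drugs (SD, n = 3) and was not called. Of the other IRF genes, 1 of 5 was called, Irf2, a repressor of interferon responses, at -0.31 with an adjusted p of 0.0499 in limma. Irf3, which starts interferon transcription, averaged 13.6 ± 0.439 TPM without and 12.6 ± 0.736 TPM with the drugs and was not called.

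Of the other antiviral effectors, 6 of 41 were called lower. As deposited 36 of 41 fold changes were below 0, beside 85.0% of all loci, and after centring 23 of 41 with a median of -0.09, beside 42.4% of all loci. Bst2, or tetherin, which holds budding virus at the membrane, averaged 50.7 ± 6.97 TPM without and 31.2 ± 2.52 TPM with the drugs (SD, n = 3), a difference of -0.68 with an adjusted p of 0.0228 in limma. Oas1a, an oligoadenylate synthetase, fell by 0.79 on the log2 scale, Parp12 by 0.63, Eif2ak2, the RNA-activated kinase PKR, by 0.49, and Tor3a and Znfx1 by 0.41 each. The most abundant effector, Ifi27, was at 284.2, 156.9 and 162.2 TPM in JA, 236.3, 179.8 and 217.5 TPM in SNI and 167.1, 99.33 and 87.89 TPM in PLM. JA replicate 1 was again its highest sample, PLM replicate 1 stood above the other PLM samples as in Irf7, and the adjusted p against SNI was 0.0583 in limma. Ifitm3 averaged 74.0 ± 31.9 TPM without and 41.4 ± 6.22 TPM with the drugs and was not called.

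Genes that answer more to interferon gamma gave 2 calls of 10, the GTPases Irgm at -0.59 and Igtp at -0.44, while the immunoproteasome subunits Psmb10 and Psmb8 were at 0.10 and -0.06 as deposited and at 0.35 and 0.18 after centring, neither called. The median of that list went from -0.09 to 0.16. Of 3 chemokines tested none was called, with Cxcl16 at -0.22 and Ccl5 at -0.59 as deposited and at 0.03 and -0.35 after centring. Of 6 negative regulators none was called, and their median was 0.06 as deposited and 0.31 after centring. After centring 5 of 6 were above 0 and 1 below, beside 42.4% of all loci below 0. Ptpn11, a phosphatase, was the most abundant of them, at 182.2, 181.3 and 190.8 TPM in SNI and 217.6, 199.3 and 224.0 TPM in PLM. As deposited it was higher without overlap, beside 1.59% of all loci. Its fold change was 0.21 with an adjusted p of 0.0700 in limma, and 0.45 after centring with an adjusted p of 0.0624. Pias1, which binds activated STAT proteins, was at -0.18 as deposited and 0.07 after centring and was not called. The genes called as deposited and named above were closer to 0 after centring, at -0.54 in Oas1a, -0.43 in Bst2, -0.38 in Parp12, -0.34 in Irgm, -0.24 in Mavs and in Eif2ak2, -0.20 in Ube2l6, -0.19 in Igtp, -0.16 in Tor3a and in Znfx1, and -0.07 in Jak1 and in Irf2.

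**Figure D5:**
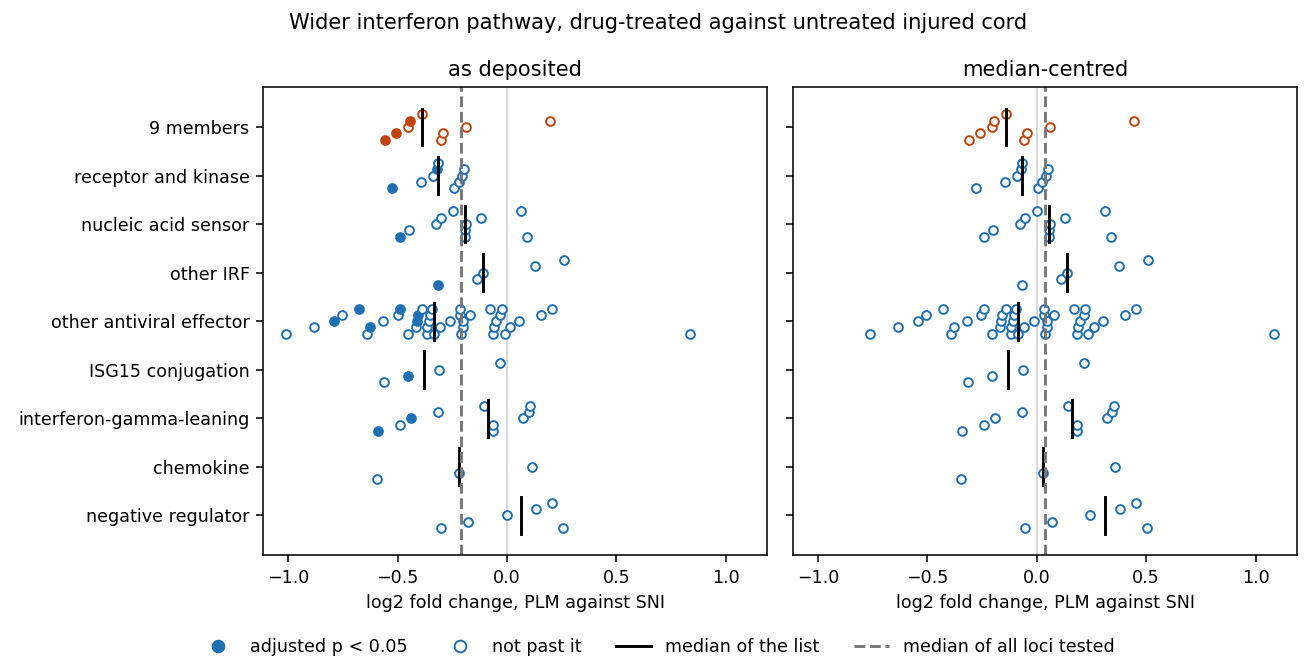
Log2 fold change of PLM against SNI for the 9 members and for 8 lists of the interferon pathway, as deposited and median-centred. Each point is a gene, filled where the adjusted p in limma was under 0.05, black bars are list medians and the dashed line is the median of all loci tested. Filled points lie to the left of 0 as deposited and none remains after centring.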

How the data were processed

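RNA-seq values of 9 spinal cord samples were used, grouped by their labels. The authors cleaned the reads (fastp 0.19.5 per the submitters' notes), mapped them with HISAT2 and computed expression with StringTie. The authors deposited a table of values with 2 decimals that does not state its unit, and TPM was read from the values, since every sample adds up to about the same total. That unit holds no sequencing depth, which leaves depth and counting error unknown per sample, and tests for counts were not run. The notes name a human build, GRCh38.p13, although the identifiers are rat, so the build behind the values is unclear.

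Groups were compared in pairs with limma 3.58.1 in R 4.3.3, with a variance trend, on log2(TPM + 1) leaving out loci averaging under 1 TPM in the 6 samples of a pair, with Benjamini-Hochberg adjustment over all loci and a threshold of 0.05. The procedure was tested on simulated data. Centring subtracted each sample's median over the loci tested. The labels call samples biological replicates. Named genes were the 9 members and, from each pathway list, the genes called and the 2 most abundant (an exception, Oas1f, is marked). Likeness was Pearson's r with the members' mean. Likeness to single members was added after the values were seen. The members and lists were chosen with earlier results of these data known. Alternatives were another pseudocount, filter, scaling, fit, replicate block, and leaving out each sample. The values of 1 pathway gene are not reported here.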

Additional observations from a re-analysis of the deposited data

How the results depend on the processing

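The 3 calls in PLM against SNI (Stat2, Mx2 and Isg15) were kept with a pseudocount of 0.1 and with the stricter filter. The count of members called was 1 (Stat2) without a filter and with all 9 samples fitted. It was 0 when median-centred, with quantile normalization, without mitochondrial genes, under the study's own thresholds (an unadjusted p under 0.05 with a log2 change beyond 1 in either direction), and with the replicate block, as deposited or median-centred. Leaving out 1 sample, as deposited or centred, gave 0 to 2 calls, and fold changes from -0.61 to -0.27 in Stat2, -0.58 to -0.19 in Mx2, -0.49 to -0.12 in Isg15, -0.73 to -0.046 in Irf7, -0.44 to -0.029 in Irf9, -0.36 to -0.011 in Oasl2, -0.31 to 0.29 in Ifit2, -0.13 to 0.95 in Ifit3 and -0.49 to 0.091 in Mx1. Ifit2 turned to 0.062 when centred, with or without the replicate block, and to 0.050 with quantile normalization.

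In SNI against JA, Mx1, Mx2 and Oasl2 turned to -0.042, -0.032 and -0.022 when centred, with or without the replicate block, and to -0.015, -0.044 and -0.0086 with quantile normalization. Without 1 sample the range was -0.52 to 0.18 in Irf7, -0.30 to 0.15 in Irf9, -0.042 to 0.42 in Ifit2, -0.16 to 0.79 in Ifit3, -0.23 to 0.24 in Mx1, -0.16 to 0.29 in Mx2, -0.31 to 0.21 in Isg15 and -0.20 to 0.44 in Oasl2. In PLM against JA it was -0.0020 to 0.39 in Ifit2, -0.41 to 0.047 in Mx1, -0.42 to 0.21 in Oasl2, -0.86 to -0.19 in Irf7, -0.60 to -0.16 in Irf9, -0.55 to -0.14 in Mx2 and -0.63 to -0.16 in Isg15. For Ifit3 that range was 0.35 to 1.11. Irf7 in PLM against SNI was called without PLM replicate 1. Of all 564 values of a member under an alternative, 460 kept their direction and side of the threshold. Of the others, 52 changed direction, 51 lost a call and 1 gained it. In SNI against JA and PLM against JA no member was called, so no call could be lost there. All 51 losses were in PLM against SNI, where Stat2 was called in 7 of 21 alternatives, Mx2 in 3 and Isg15 in 2. Mx1 was not tested under the stricter filter. Except where a sample was left out, the cause of these changes was not tested.

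Replicate numbers gave no clear pairing, and 3 samples per group cannot exclude one. Whole samples correlated at 0.946 to 0.966 in pairs. After removal of group means, same-numbered samples correlated at -0.046 to 0.13 and other pairs between groups at -0.19 to 0.14. In SNI against JA, PLM against SNI and PLM against JA, 3, 2 and 2 of 6 samples correlated best with their own number. With the replicate block the adjusted p of Stat2, Mx2 and Isg15 in PLM against SNI was 0.105, 0.104 and 0.129 in limma. With 3 samples per group and no read depth, the precision of Mx1, the lowest member, is the least known. Ifit2 with Ifit3, and Mx1 with Mx2, are related copies, and how shared reads were divided is not given in the sources used here.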
